A study of Mus musculus with 4 samples.

Results

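Among the genes of mouse preimplantation embryos that carry only a placeholder name, a set of 24 was abundant at the late 2-cell (L2C) stage and scarce both before it, at the early 2-cell (E2C) stage, and after it, at the 8-cell stage. The set was chosen by measured values. A gene was taken if its symbol had the form Gm followed by a number, or ended in Rik, if its mean over L2C cells was 10 or more copies per 100,000 unique molecular identifiers (UMIs, tags that mark single cDNA molecules), and if that mean was at least 4 times the mean over E2C cells and at least 4 times the mean over 8-cell cells. Of 20171 genes measured, 4105 had such a symbol and 24 met all limits, 14 with a Gm and 10 with a Rik symbol. A further 146 genes with an ordinary symbol met the same limits and served as a comparison.

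The oocytes and embryos carry the strain label DBA/2J x C57BL/6J, and no treatment is given in the labels. The study's methods name C57BL/6J females, injected with PMSG and hCG to induce ovulation, and DBA/2NCrl males. By the same methods the oocytes came from unmated females. Single cells were taken from 10 oocytes, 9 zygotes, 5 E2C embryos (10 cells), 6 L2C embryos (11 cells), 5 4-cell embryos (17 cells), 4 8-cell embryos (26 cells) and 4 16-cell embryos (38 cells). For 22 cells of 32-cell embryos, 13 of blastocysts and 5 embryonic stem cells (mESCs), the names give no embryo. The mESCs were of the cultured male line E14 Tg2A, per the study's methods. The embryo was the replicate, and nothing in the labels says which embryos came from the same female.

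The first main wave of transcription from the embryonic genome starts in the mouse at the 2-cell stage, after maternal RNAs stored in the oocyte have begun to be degraded. Many transcripts of this wave are short-lived, and a part of them comes from loci that are silent in most adult tissues. A Gm symbol marks a gene model predicted from sequence and a Rik symbol a gene first seen as a cDNA clone of the RIKEN collection. Such genes include long noncoding RNAs, transcripts antisense to a known gene and open reading frames without an assigned function, and full-length reads show how their exons are joined.

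Cells held a median of 38914 UMIs (range 4985 to 389775), from 166731 to 389775 in oocytes and zygotes and from 17971 to 67963 in L2C cells. L2C embryo 1 was represented by a single cell of 17971 UMIs, and 4-cell embryo 2 included a cell of 4985 UMIs. Values are shares of a cell's UMIs, so a smaller share and a larger total of other transcripts cannot be told apart. Oocyte markers fell from a summed median of 2477 copies per 100,000 in oocytes to 86.3 in L2C embryos. Later medians were 155 at 4-cell, 79.5 at 8-cell and 165 at 16-cell, with 6.33 in 32-cell and 160 in blastocyst cells. Of the 7 markers, Zp3 rose from a mean of 9.91 in oocytes to 24.3 in L2C cells, and Zp2 was at 3.69 and 3.87. The oocyte genes Gdf9 and H1foo were nevertheless listed in mESCs, at means of 29.8 and 51.1 copies per 100,000, which is more than any of the 24 genes had outside L2C and 4-cell cells. Mos and Zp3 were at 2.56 and 1.40 in mESCs, and Bmp15, Zp1 and Zp2 at 0. What part the RNA of other cells of the pool had in the low values at the remaining stages was not tested. Of 3 cumulus cell markers in the table, the summed level was at most 1.03 in every stage. The usual markers of the late 2-cell stage were higher in E2C than in L2C embryos. The summed level of Zscan4c, Zscan4d, Tcstv1, Tcstv3, Usp17lc and Zfp352 had a median of 42.2 in E2C embryos (range 36.1 to 78.0) and of 4.76 in L2C embryos (range 1.74 to 39.1). In zygotes the median was already 48.3 (range 11.0 to 75.5). Tcstv1 made up most of the E2C sum, with means of 32.5 in zygotes, 29.7 in E2C and 1.37 in L2C cells. Each of the others was also higher in E2C than in L2C cells, but Zfp352 differed little (1.24 and 0.963).

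The transcripts formed a pulse that spanned L2C and the 4-cell stage. Summed over the 24 genes, the level was 5.93 ± 2.53 copies per 100,000 (SD, n = 10) in oocytes, 7.57 ± 2.19 (n = 9) in zygotes and 19.1 ± 10.1 (n = 5) in E2C embryos. It stood at 498 ± 97.9 (n = 6) in L2C embryos and at 328 ± 46.4 (n = 5) in 4-cell embryos. In 8-cell and 16-cell embryos it was 31.1 ± 6.94 (n = 4) and 30.1 ± 9.49 (n = 4). Every L2C and 4-cell embryo lay above every embryo of the other stages. In cells whose embryo is not named, the median sum was 22.0 in 32-cell blastomeres (range 0 to 47.1), 19.6 in blastocyst cells (range 6.86 to 43.9) and 16.4 in mESCs (range 7.01 to 27.95). The E2C, L2C and 8-cell values chose the genes and are given as a description, with no test.

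**Figure D1:**
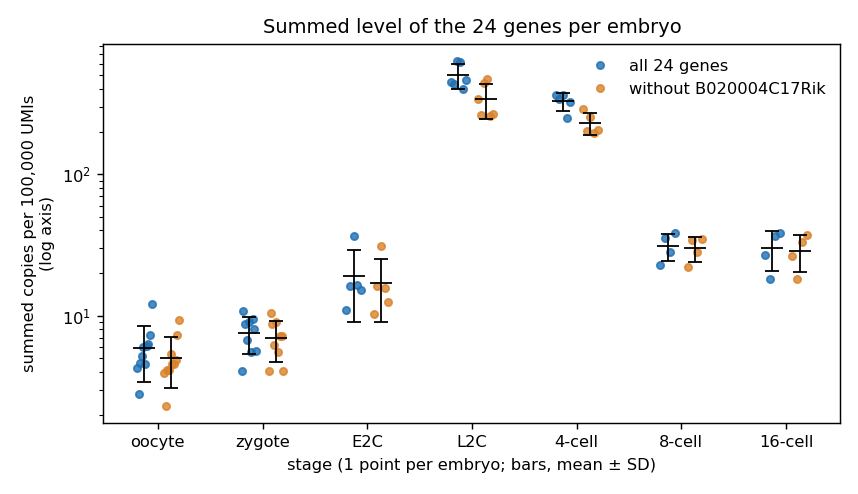
Summed level of the 24 genes in each embryo, in copies per 100,000 UMIs on a log axis, by stage, for all genes (blue) and without B020004C17Rik (orange). Points are embryos and bars the mean ± SD. L2C embryos lie between 399 and 628 and 4-cell embryos between 249.97 and 365, while no embryo of another stage exceeds 38.6.

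B020004C17Rik alone made up 32.0% of the summed L2C level. Without it the sum was 339 ± 94.8 in L2C and 228 ± 40.8 in 4-cell embryos. Means of the single genes over L2C embryos ran from 9.81 to 159 with a median of 14.2, against medians of 0.150, 0.194 and 0.438 in oocytes, zygotes and E2C embryos. At least 19 and at most 24 of the genes were detected in each L2C cell. Sister blastomeres of the 5 L2C embryos with both cells had similar sums, and the higher sister exceeded the lower by a factor of 1.02 to 1.18.

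**Figure D2:**
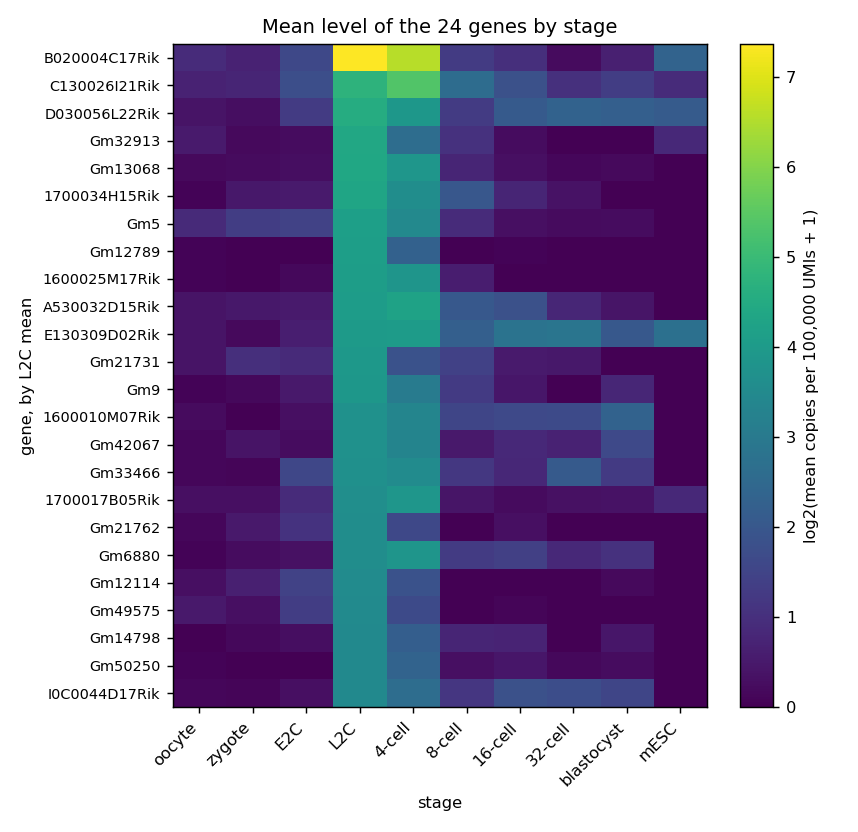
Mean level of each gene (rows, ordered by L2C mean over cells) at each stage (columns), as log2(mean copies per 100,000 UMIs + 1). The 24 rows are brightest at L2C or at 4-cell, and no mean over oocytes, zygotes, blastocyst cells or mESCs reaches 10 copies.

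B020004C17Rik is annotated on the forward strand at chr14:57015134-57018982 (GRCm38) as a long intergenic noncoding RNA in GENCODE M21, whereas RefSeq lists a protein for it. Its level in the 6 L2C embryos was 111, 171, 185, 148, 139 and 201 copies per 100,000, and in the 5 4-cell embryos 77.4, 139, 105, 55.6 and 119. E2C embryos ranged from 0 to 5.76, 8-cell embryos from 0 to 3.13 and 16-cell embryos from 0.111 to 3.46. L2C and 4-cell embryos thus overlapped with each other and with no other stage. The mean over mESCs was 4.09, and the mean over blastocyst cells 0.567.

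The second gene, C130026I21Rik, lies on the reverse strand at chr1:84992690-85270566. It was higher in 4-cell embryos, where it ranged from 17.1 to 58.7 copies per 100,000 with a median of 33.3, than in L2C embryos, where it ranged from 15.0 to 49.5 with a median of 21.9, and the ranges overlapped. A530032D15Rik, annotated within the same interval on the same strand, ranged from 8.34 to 27.8 in L2C and from 8.03 to 24.9 in 4-cell embryos. Annotated transcripts of this pair share long stretches with each other and with speckled protein genes, which encode components of nuclear bodies. A transcript of C130026I21Rik was 98.6% identical to Sp110 over its whole length, and one of A530032D15Rik was 98.5% identical to Sp140 over 92.7% of its length. Reads of these loci could be split between the copies, so both levels are uncertain.

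D030056L22Rik on chromosome 19 ranged from 12.9 to 36.1 copies per 100,000 in L2C and from 2.40 to 22.1 in 4-cell embryos. It kept means of 3.98 in 32-cell blastomeres, 3.71 in blastocyst cells and 3.34 in mESCs. Gm13068, 1700034H15Rik and Gm5 had L2C means of 22.3 ± 14.1, 19.2 ± 13.6 and 16.5 ± 9.01 (SD, n = 6). At 16-cell their means were 0.296, 1.05 and 0.172, and none of the 3 was detected in mESCs. Gm5 was the member with the highest level in zygotes, at a mean of 1.52.

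1600025M17Rik, an X-linked long noncoding RNA, ranged from 0.784 to 29.6 copies per 100,000 in L2C and from 6.08 to 21.3 in 4-cell embryos, and was at 0 in every 16-cell embryo, blastocyst cell and mESC. Of the lower members, Gm33466 had L2C and 4-cell means of 12.4 ± 6.93 and 9.51 ± 6.996, and Gm42067 of 11.2 ± 8.04 and 10.5 ± 8.62. Gm14798, Gm50250 and I0C0044D17Rik stood at 10.4 ± 3.79, 10.3 ± 7.17 and 9.81 ± 10.2 in L2C and at 4.03 ± 2.31, 4.24 ± 0.779 and 5.13 ± 1.38 in 4-cell embryos. 1600010M07Rik, with 11.7 ± 6.02 and 8.47 ± 3.45, also kept a mean of 3.95 in blastocyst cells, detected in 10 of 13.

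Several members differed widely between L2C embryos. Gm32913 was at 0, 52.0, 51.1, 3.17, 0 and 5.89 copies per 100,000 in L2C embryos 1 to 6. Gm12789 was at 0, 7.45, 29.2, 38.2, 8.77 and 7.64 in the same order and was at 0 in all zygotes, E2C and 8-cell embryos and in 9 of 10 oocytes. Gm9, an X-linked gene, was at 39.0, 0, 40.2, 0, 16.3 and 0. L2C embryo 3 was high for all 3 genes, whereas the other high values fell in embryo 2 for Gm32913, embryo 4 for Gm12789 and embryo 1 for Gm9. In embryo 1, 1 UMI weighed 5.56 copies, so a 0 there says little. A level of 0 in 1 L2C embryo was also found for Gm42067 and 1700017B05Rik, and the remaining 19 members were detected in all 6.

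The 4-cell level divided the set. Over the 24 genes the median 4-cell mean was 57.9% of the L2C mean, with a range from 15.8% to 145%, and all 24 had their highest level outside L2C at the 4-cell stage. For the 146 named genes that met the same limits the median was 70.7% (range 15.1% to 232%). At the low end were Gm21762 (15.8%), Gm21731 (16.8%), Gm49575 (18.9%) and Gm12114 (22.3%). The first 2 of these rested on single embryos. Without L2C embryo 4, where Gm21762 was at 31.8 and Gm21731 at 41.3 copies per 100,000, they stood at 25.9% and 28.5%, and without 4-cell embryo 1 at 8.69% and 9.35%. Single embryos also moved the figure of Gm32913 from 25.9% to 40.2% or 39.6% (without L2C embryo 2 or 3) or 11.3% (without 4-cell embryo 5), that of Gm42067 from 94.3% to 62.5% (without 4-cell embryo 2) and that of I0C0044D17Rik from 52.3% to 85.3% (without L2C embryo 4). Gm12114 ranged from 5.50 to 15.2 copies per 100,000 in L2C and from 0 to 5.10 in 4-cell embryos, and Gm49575 from 5.50 to 22.3 and from 0 to 4.61. These were the only 2 genes of the set whose L2C and 4-cell embryos did not overlap, beside 5 of the 146 named genes. The share over all genes was not computed, and the L2C values chose both groups, so the counts are a description. At the high end were C130026I21Rik (145%), 1700017B05Rik (133%), Gm6880 (126%) and E130309D02Rik (106%), and with A530032D15Rik (104%) they made up the 5 genes whose 4-cell mean exceeded the L2C mean. Embryos of both stages overlapped in each of these 5.

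**Figure D3:**
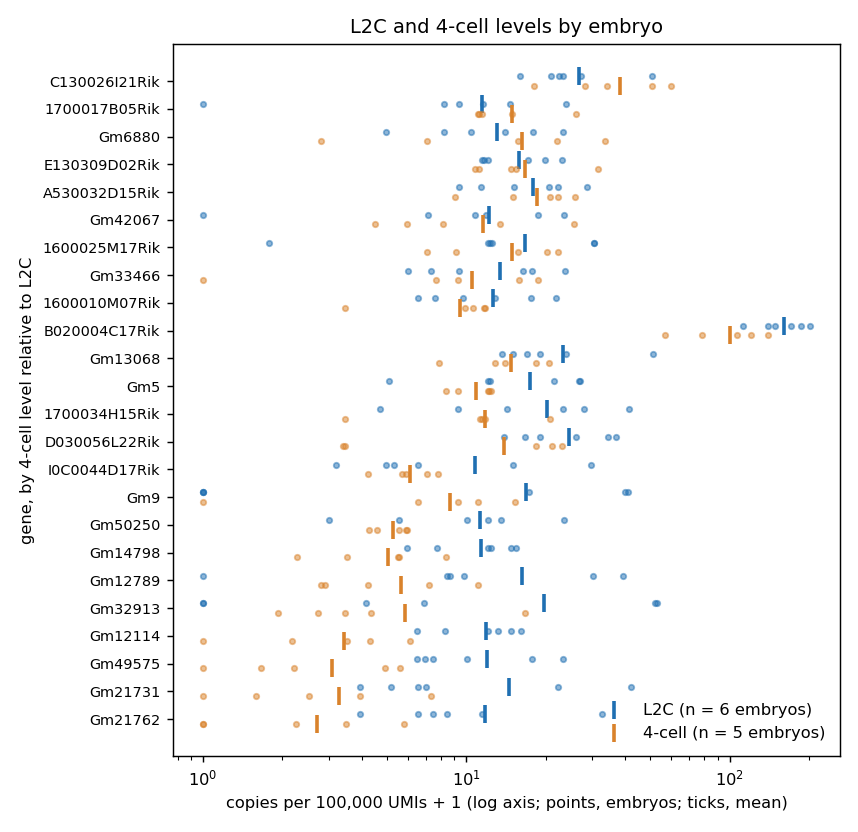
Level of each gene in the 6 L2C embryos (blue) and the 5 4-cell embryos (orange), as copies per 100,000 UMIs + 1 on a log axis. Points are embryos and vertical ticks the mean, and genes are ordered by the 4-cell level relative to L2C, from 15.8% at the bottom to 145% at the top.

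E130309D02Rik had the highest 16-cell mean of the set. Its mean was 14.9 ± 4.94 copies per 100,000 in L2C (n = 6), 15.8 ± 8.57 in 4-cell (n = 5) and 6.17 in 16-cell embryos, with 6.34 in 32-cell blastomeres and 5.62 in mESCs. Its L2C mean over cells was 4.16 times the 8-cell mean, just inside the limit of 4. C130026I21Rik, at 5.08 times, was next. Just outside that limit stood 0610012G03Rik at 3.63 times and Gm7969 at 2.71 times. For the limit on E2C, Gm33466 (6.10 times) and Gm12114 (6.26 times) were just inside and Gm48754 (3.92 times) and 9430038I01Rik (3.90 times) just outside. For the L2C mean, I0C0044D17Rik and Gm50250 were inside at 10.2 copies each, and Gm10697 (9.71) and 1600012H06Rik (9.64) outside.

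Zygotes, 4-cell and 16-cell embryos took no part in the choice of the genes, so the rise before and the fall after the pulse were tested on them with limma over all genes. Of 10323 genes tested, 30.3% were called higher from zygote to 4-cell, and of the 24 members 22 were. From 4-cell to 16-cell, 11.7% of genes were called lower and again 22 members were, and 21 members were called in both steps, against 9.04% of all genes tested. All 24 passed the filter on low values, but 16 of them only because of the 4-cell embryos, so these counts were bound to be high. With no filter, 22 and 18 of the 24 were called, against 16.4% and 5.31% of 18603 genes, and the median log2 fold changes of the 24 were 2.74 and -1.95. Since genes were chosen for a high L2C level and a low 8-cell level, neighbouring stages were not free of the choice, and nothing particular to these genes is read from the counts.

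B020004C17Rik had the largest change of the set in both steps. Its log2 fold change was 5.97 ± 0.41 (SE) from zygote to 4-cell (limma adjusted p = 1.24e-15) and -5.68 ± 0.51 from 4-cell to 16-cell (adjusted p = 6.03e-11). C130026I21Rik rose by 4.55 ± 0.36 (adjusted p = 4.62e-14) and changed by -3.59 ± 0.44 (adjusted p = 7.40e-08). E130309D02Rik rose by 3.797 ± 0.33 and changed by -1.16 ± 0.40 at the second step (adjusted p = 0.0358, and 0.131 with no filter on low values). All values are on the log2(copies + 1) scale, which understates changes of low genes.

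Of the 24 members, 3 missed a call. Gm21731 was called in neither step, with log2 fold changes of 0.68 ± 0.40 (adjusted p = 0.123) and -0.85 ± 0.49 (adjusted p = 0.254). Gm21762 did not reach a log2 fold change of 1 at the first step, at 0.94 ± 0.29 (adjusted p = 0.00507). I0C0044D17Rik was not called lower at the second, at -0.85 ± 0.36 (adjusted p = 0.0967). With no filter 6 members were not called lower. Beside Gm21731 and I0C0044D17Rik these were E130309D02Rik (limma adjusted p = 0.131), D030056L22Rik (0.123), Gm21762 (0.187) and Gm49575 (0.0959). Gm21731 and Gm21762 are a pair on chromosome 13, and a transcript of each was 99.8% identical to another gene along its whole length, AF067063 and D13Ertd608e respectively. Those copies had L2C means of 27.4 and 13.4 copies per 100,000, so the division of reads within each pair of copies is uncertain. Altogether 5 of the 23 members with an annotated transcript had a copy of at least 95% identity over at least 80% of their length.

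Genes usually named for the 2-cell burst of transcription had another timing or a lower level. Of 27 such genes, 25 were in the table and none met the limits that chose the 24 genes. Only Sp110 reached an L2C mean of 10, at 20.0 copies per 100,000, and it stood at 10.8 in E2C and 15.2 in 8-cell cells. Tdpoz5, a BTB-domain gene, was at 0.310 in E2C, 7.94 in L2C and 14.7 in 4-cell cells. Usp17lb, a deubiquitinase gene, was at 0.608, 7.13 and 5.73, and Arg2, the mitochondrial arginase, at 12.1, 5.08 and 2.14.

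In GENCODE M21, 11 of the members were protein-coding, 7 long intergenic noncoding and 5 antisense genes, while Gm50250 was not listed under that symbol. RefSeq held 15 of them, 8 as protein-coding. The X chromosome held 4 members (1600025M17Rik, Gm9, Gm6880 and Gm14798), and chromosomes 1 and 4 held 3 each. The share of all genes on these chromosomes was not computed, so nothing is read from the counts.

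The annotated antisense genes were set beside the gene on the opposite strand, which the stranded full-length reads keep apart. Gm42067 overlapped exons of Dpf2, a subunit of chromatin remodelling complexes, whose mean was 16.4 copies per 100,000 in L2C, 14.4 in 4-cell and 18.1 in 8-cell cells, while Gm42067 was at 12.2, 9.06 and 0.419. Gm14798 overlapped Zfx, an X-linked zinc finger gene, at 5.62 in L2C, 4.94 in 4-cell and 1.02 in 8-cell cells. Gm13068 lay opposite Slc25a33, a mitochondrial nucleotide carrier, and 1700034H15Rik opposite Slc30a1, a zinc exporter. Both partners also had their highest mean at L2C among the stages from oocyte to 16-cell. Slc25a33 was at 0.302 in E2C, 2.46 in L2C and 0.482 in 4-cell cells, and Slc30a1 at 0.744, 4.69 and 0.830. The antisense transcripts were at 19.8 (Gm13068) and 18.9 (1700034H15Rik) in L2C cells. 1600010M07Rik spans a region that holds Ipo7, Zfp143 and Wee1 on the other strand. In L2C, 4-cell and 8-cell cells Zfp143 was at 13.8, 9.38 and 3.86. Over the same stages Ipo7 rose from 9.97 to 13.7 and 16.2, and Wee1 was at 2.11, 2.30 and 1.24.

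Full-length isoforms were available for 22 members, 70 isoforms in all with 1 to 7 per gene. Gm32913 and Gm49575 had none in the study's filtered list. Isoforms were classed by their splice junctions: 21 were full splice matches (FSM) to an annotated transcript, 17 incomplete matches (ISM) that lack junctions at an end, 2 new combinations of known splice sites (NIC) and 30 carried at least 1 unannotated splice site (NNC). New classes thus made up 45.7% of the members' isoforms, beside 24.1% for the named genes with the same timing and 52.3% for all Gm and Rik genes. 1700017B05Rik had the most isoforms (7), followed by B020004C17Rik (6), and by C130026I21Rik, 1700034H15Rik, E130309D02Rik and 1600010M07Rik (5 each).

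Most members were read as spliced transcripts of few exons. The leading isoform was the one with the most UMIs in L2C cells, or the only isoform in the case of Gm12114, which had none there. It had 2 exons in 13 of the 22 genes, 3 in 6 genes, 4 in Gm9 and 6 in C130026I21Rik and E130309D02Rik. In no gene did it have a single exon. Isoforms outside the classes named above, or detected in few cells, had been filtered out by the study. How many single-exon reads this removed was not tested. Without Gm12114 the count was 12 of 21 (57.1%), with a median length of 1015 nt. In 4 genes (B020004C17Rik, C130026I21Rik, A530032D15Rik and 1700017B05Rik) the leading isoform was an incomplete match, which may lack 5′ exons. A 2-exon leading isoform was thus found in 59.1% of the members, beside 14.2% of 141 named genes and 29.1% of 1115 Gm and Rik genes, and a single-exon one in 0%, 8.51% and 10.8%. The median spliced length was 1012 nt (range 551 to 2757), beside 1431 nt for the named genes and 956 nt for all Gm and Rik genes. For 0 of 22 genes the exact binomial 95% interval reaches 15.4%. It takes the genes as independent draws, which a set chosen by a rule is not, so nothing is read from it. The differences between the groups of genes were not tested. The shortest leading isoform was that of 1700034H15Rik and the longest that of 1700017B05Rik. Some isoforms led narrowly. In 1700017B05Rik the 2757 nt isoform had 8 UMIs in L2C cells and one of 1341 nt had 7. In A530032D15Rik the 2-exon isoform had 4, and isoforms of 3 and 4 exons had 3 each.

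**Figure D4:**
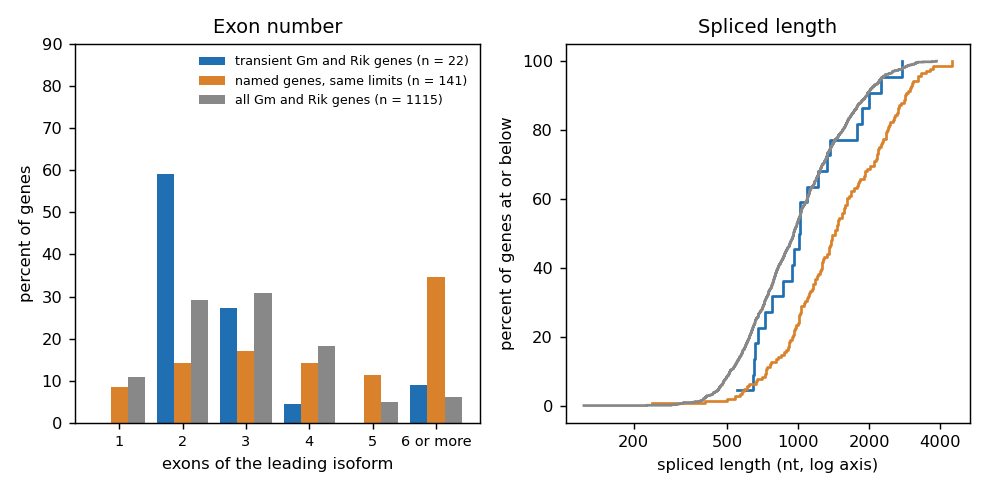
Left, percent of genes by exon number of the leading isoform, for the transient Gm and Rik genes (22 with an isoform), the 141 named genes that met the same limits and all 1115 Gm and Rik genes with an isoform. Right, percent of genes at or below each spliced length (log axis): 2-exon isoforms take up 59.1% of the first group, and its length curve lies near that of all Gm and Rik genes.

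B020004C17Rik was read mainly as a pair of isoforms. An ISM isoform of 2 exons and 722 nt held 578 of its 1156 isoform UMIs in L2C cells, and the 4-exon FSM isoform of 1550 nt held 505. The 5′ end of the FSM isoform lay 591 bases upstream of the annotated start, and that of the short isoform lay inside the gene, at position 57016535, with 3′ ends at 57017556 and 57017555. A short isoform of this kind can be a transcript with its own start or a copy that was not completed at its 5′ end, and these cannot be told apart here. The short isoform made up 49.1% ± 10.7 of the gene's isoform UMIs in L2C embryos (SD, n = 6) and 53.6% ± 4.50 in 4-cell embryos (n = 5), with a two-sided exact permutation p = 0.403. No L2C embryo lay near that mean. The shares were 41.2%, 39.4% and 37.8% in embryos 1 to 3 and 59.9%, 56.0% and 60.4% in embryos 4 to 6. Embryo 1 rested on 17 isoform UMIs, and the cause of the split was not tested. The FSM isoform made up 43.8% ± 7.80 and 38.6% ± 5.15 (exact permutation p = 0.234, and adjusted over both isoforms 0.403). The differences of 4.44 and -5.20 percentage points (4-cell minus L2C) were smaller than the SD among L2C embryos, which holds the split. The second was slightly larger in size than the SD among 4-cell embryos. The isoform table held more UMIs for this gene than the gene table did (1156 against 998 in L2C cells), and the cause was not tested.

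**Figure D5:**
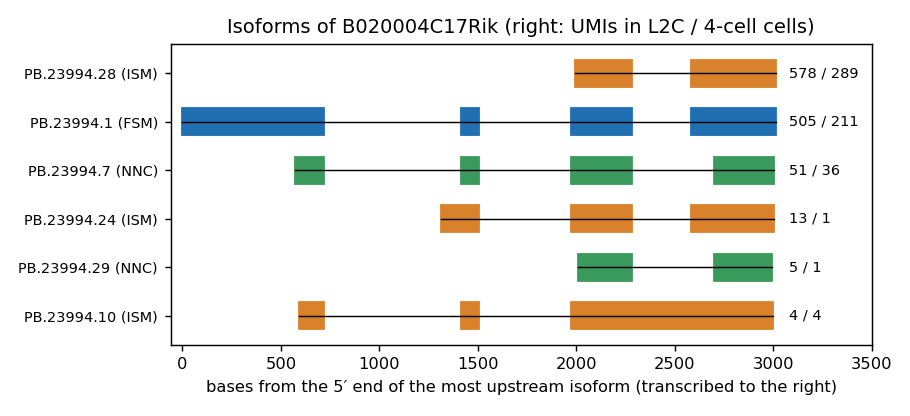
The 6 isoforms of B020004C17Rik drawn to scale, with boxes for exons and lines for introns, by class (blue, FSM; orange, ISM; green, NNC). The horizontal axis is the distance in bases from the most upstream 5′ end, and the figures at the right give the UMIs in L2C and 4-cell cells. The 2-exon and the 4-exon isoforms carry 578 and 505 of the 1156 L2C UMIs.

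For the other members isoform UMIs stood in a varying ratio to the gene-level UMIs, of which they need not be a part. Reads of isoforms that the study filtered out are not among the isoform UMIs. In L2C cells isoform UMIs came to 71.2% of gene-level UMIs over all members, but to 49.1% (986 of 2009) without B020004C17Rik, beside 69.7% for all genes. For 9 members the figure was below 50%, among them C130026I21Rik at 7.36% and A530032D15Rik at 11.0%. The other members with a close copy in another gene had higher figures, 51.6% for Gm6880, 87.7% for Gm21731 and 94.0% for Gm21762. The only isoform of Gm12114 had 8 UMIs in oocytes, 20 in zygotes and 0 in L2C and 4-cell cells, so none of the 63 UMIs of the gene at L2C belonged to it. For Gm5 and Gm42067 isoforms came to 95.05% and 94.9%.

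The 5′ ends of several isoforms lay far from the annotated start. All 5 isoforms of 1700034H15Rik were NNC and began between 41926 and 41960 bases upstream of its annotated 5′ end, on the reverse strand around chr1:191949453-191949487, and together they held 58 UMIs in L2C and 25 in 4-cell cells. For 1700017B05Rik, 3 of 7 isoforms began 25630 to 25663 bases upstream of the annotation. An isoform of 3 exons and 4176 nt among them had 0 UMIs in L2C and 12 in 4-cell cells. Both isoforms of Gm13068 began at the same base, 2146 bases upstream. Among 21 members with an annotated start, the leading isoform began within 100 bases of it in 33.3%, beside 54.7% of the named genes and 48.3% of all Gm and Rik genes.

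The isoforms of 1600010M07Rik had different stages. Its FSM isoform, which began 33 bases upstream of the annotated start, had 2 UMIs in L2C cells, 7 in 4-cell cells and 16 in blastocyst cells. The leading isoform at L2C was an NNC isoform that began inside the gene, at position 110004004 of chromosome 7, and had 26, 14 and 0 UMIs at the same stages. Another NNC isoform with 24, 12 and 0 UMIs began near another annotated start of the gene, at position 110150669. These are UMIs summed over cells and the difference was not tested.

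Promoter windows of RefSeq (GRCm38.p6), from 250 bases before to 50 bases after the start, were at hand for 15 members (16 windows). Their median GC content was 50.7% with a median of 6.50 CpG, near that of all 32851 windows (52.7% and 7). Windows of the named genes with the same timing had a median of 61.0% and 21 CpG. D030056L22Rik, 1700034H15Rik, E130309D02Rik and 1700017B05Rik had 31 to 35 CpG, and no other member but Gm42067 (20) exceeded 9. Of the 16 windows, CCAAT was found on either strand in 6 (37.5%, and 37.4% of all windows), TATAAA in 1 (6.25%, and 13.6%), GGATTA in 2 (12.5%, and 7.06%) and AAGGTCA in 1 (6.25%, and 4.72%). GGATTA and AAGGTCA are the core letters bound by homeodomain proteins of the Obox type and by orphan nuclear receptors such as Nr5a2. In the 9 windows with an isoform start within 100 bases of the RefSeq start, the counts were the same, so that CCAAT was in 66.7%, GGATTA in 22.2% and TATAAA and AAGGTCA in 11.1% each. A match is only a description of the letters.

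A pair of windows is shown in which an isoform began close to the RefSeq start, that of the most abundant member and that with the most copies of a motif. In the window of B020004C17Rik (forward strand, chr14:57014884-57015183) capitals mark TATAAA, found on both strands in overlap about 30 bases before the start, and CCAAT on the reverse strand. An isoform with 51 UMIs in L2C cells began 19 bases upstream of this start, while the longer FSM isoform began outside the window. In that of Gm9 (reverse strand, chrX:37210992-37211291), where the leading isoform began 40 bases upstream, capitals mark 5 copies of CCAAT.
B020004C17Rik: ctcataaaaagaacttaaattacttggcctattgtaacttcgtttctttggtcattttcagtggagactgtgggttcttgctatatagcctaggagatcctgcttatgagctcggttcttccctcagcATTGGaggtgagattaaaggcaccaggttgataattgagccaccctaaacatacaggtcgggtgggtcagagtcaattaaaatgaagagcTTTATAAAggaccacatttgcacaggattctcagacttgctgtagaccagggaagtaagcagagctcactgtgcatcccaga
Gm9: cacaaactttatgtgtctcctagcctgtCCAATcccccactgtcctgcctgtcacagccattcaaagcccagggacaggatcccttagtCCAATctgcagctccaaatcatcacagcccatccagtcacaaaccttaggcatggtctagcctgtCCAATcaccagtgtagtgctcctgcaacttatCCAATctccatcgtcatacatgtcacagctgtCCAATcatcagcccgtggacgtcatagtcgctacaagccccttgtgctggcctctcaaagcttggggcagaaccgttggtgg

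Gm12789 (forward strand, chr4:101986590-101986889) and I0C0044D17Rik (reverse strand, chr4:98823791-98824090) had like windows. They aligned over 257 positions at 86.4% identity, and the aligned part is in capitals. The leading isoform of Gm12789 began 1 base, and that of I0C0044D17Rik 11 bases, upstream of the RefSeq start. The comparison was made after the sequences had been seen.
Gm12789: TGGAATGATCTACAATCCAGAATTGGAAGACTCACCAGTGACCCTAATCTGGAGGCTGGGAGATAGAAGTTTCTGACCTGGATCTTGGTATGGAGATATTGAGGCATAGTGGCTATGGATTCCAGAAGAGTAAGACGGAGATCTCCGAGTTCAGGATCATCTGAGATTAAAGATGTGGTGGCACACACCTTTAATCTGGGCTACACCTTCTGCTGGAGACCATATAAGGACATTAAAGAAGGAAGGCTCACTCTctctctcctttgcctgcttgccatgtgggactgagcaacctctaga
I0C0044D17Rik: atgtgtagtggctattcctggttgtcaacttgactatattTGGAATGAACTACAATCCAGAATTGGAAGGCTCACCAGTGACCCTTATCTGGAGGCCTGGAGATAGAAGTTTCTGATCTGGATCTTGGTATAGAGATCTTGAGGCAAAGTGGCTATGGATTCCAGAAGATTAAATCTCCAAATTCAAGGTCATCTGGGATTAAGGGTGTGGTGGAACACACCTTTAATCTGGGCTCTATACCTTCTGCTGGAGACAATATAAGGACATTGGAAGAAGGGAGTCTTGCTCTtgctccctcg

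Windows of 20 other genes were like one of them at 80% identity or more over at least 100 bases, and 13 of those genes were in the table. Only Arih2 and Sp110 had an L2C mean of 10 or more copies per 100,000, at 15.7 and 20.0. Gm12031 had 5.04 at L2C, 10.9 at 4-cell, 6.10 at 8-cell and 1.17 at 16-cell. None of the 13 met the limits that chose the 24 genes. Gm12789 and I0C0044D17Rik also differed from each other: the former was at 0 in 8-cell embryos and the latter at 1.46, and their 4-cell levels were 30.5% and 52.3% of the L2C level. The windows of C130026I21Rik and A530032D15Rik aligned at 95.9% identity over 291 positions, and no isoform of either began there.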

How the data were processed

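Full-length cDNA of single oocytes and blastomeres, tagged with cell barcodes and UMIs, was sequenced on the PacBio platform (HIT-scISOseq). Per the study's methods, reads were aligned to mm10 with minimap2, genes were assigned against an annotation and isoforms were collapsed, classified and filtered. Only isoforms of the FSM, ISM, NIC and NNC classes were kept, and those detected in few cells were dropped. The deposited gene and isoform values of 8-cell, 16-cell and 32-cell cells are of the CPM kind, given by the authors as copies per 100,000 UMIs of a cell. The columns of the other stages, recorded here as a score, were deposited in the same unit. Values above 0 were whole numbers of UMIs (100% in every cell, tolerance 0.1), and these UMIs were used for depth, isoform shares and count models. A further run of 16 oocyte or split-oocyte columns was deposited as whole UMI counts of isoforms. The authors' values were not changed.

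The members and gene lists were chosen with earlier results of these data known. Means were taken within embryos first and then over embryos, whereas the limits used means over cells. limma 3.58.1 (trend, array weights) was fitted to log2(embryo mean + 1) over 28 oocytes, zygotes, 4-cell and 16-cell embryos for genes with at least 1 copy in at least 4 of them, called where p was under 0.01 and the log2 change exceeded 1 in either direction, with Benjamini-Hochberg adjusted p-values over all genes. Members were checked in other stages without a test. p-values measure the spread between embryos. On simulated data of the 5321 genes that pass a count filter, which left out 10 of the 24 members, 96.5% of 200 genes with a mean of at least 2 copies, raised 4 times in 4-cell embryos, were called for zygote to 4-cell and 90% for 4-cell to 16-cell. Recovery of lower genes was not tested. R 4.3.3 was used, with DESeq2 1.42.0 and edgeR 4.0.16 as alternative tools, beside other pseudocounts, filters and embryos. Named genes were the 12 members with the highest L2C means, the 4 highest and 4 lowest in 4-cell level relative to L2C, the 4 with the most isoforms and the 4 with the most exons, those at the limits and up to 4 genes of the 2-cell burst. No member reached 10 copies in oocytes, zygotes, blastocyst cells or mESCs. Other members are named where a structure, sequence or embryo value is described, chosen after their values were seen. Transcripts were compared with BLAST 2.17.0 and GENCODE M21. Other values were computed in Python 3.11.15. The sequencing run was known for oocytes and zygotes only, so it could not be a term of the fit. What part the run had in the differences between stages was not tested. Intervals and floors cover counting error only.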

Additional observations from a re-analysis of the deposited data

Results flagged for a closer look

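Of 55 groups of embryos checked (the summed level at 7 stages and each gene at L2C and 4-cell), 9 held an embryo set apart from the others by Dixon's criterion. A chance rate of about 1 in 20 groups would hold for normally distributed values, whereas many values here are low counts. The groups are also not independent, because the genes were measured in the same embryos. Values of E2C and L2C embryos took part in the choice of the genes, and 1 high L2C embryo helps a gene to reach the limit on the mean. The flagged groups are therefore a description, and their number is not compared with chance. The summed level was 12.2 copies per 100,000 in oocyte 10, where the other 9 oocytes ranged from 2.78 to 7.29, and 36.7 in E2C embryo 3, where the other 4 ranged from 11.0 to 16.6. At L2C, C130026I21Rik was at 49.5 in embryo 6 (others 15.0 to 26.3), Gm13068 at 50.1 in embryo 1 (others 12.7 to 22.9) and Gm21762 at 31.8 in embryo 4 (others 2.94 to 10.5). Embryo 1 is the single cell of 17971 UMIs. At 4-cell, Gm32913 was at 15.7 in embryo 5 (others 0.923 to 3.36), E130309D02Rik at 30.6 in embryo 3 (others 9.79 to 14.4) and 1700017B05Rik at 25.2 in the same embryo (others 10.0 to 13.9). 1600010M07Rik was low, at 2.45, in 4-cell embryo 2 (others 8.90 to 10.7).

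The run of 16 oocyte columns, which no comparison used, held 125 UMIs of the members' isoforms among 3242039, and 11 of the 24 genes had none. More than 3 UMIs, the count that a floor of 0 allows, were found for 6 genes. Gm13068 had 52 UMIs in 13 of the 16 columns, or 1.60 per 100,000, and its isoforms had 0 UMIs among 1345224 in the oocytes of the other runs. At gene level it was detected in those oocytes, at a mean of 0.148 copies per 100,000. Gm5 had 21 UMIs, A530032D15Rik 11, Gm33466 11, Gm12114 10 and D030056L22Rik 8. The opposite was also seen, as isoforms of B020004C17Rik had 0 UMIs in this run and 15 in the oocytes of the other runs. The isoform lists differed, with 49271 isoforms for this run and 68012 for the others. The cause of the differences between runs was not tested.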

How the results depend on the processing

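Under other settings 70 recomputed values were labelled as unchanged and 10 as moved, and none reversed. Counts were labelled unchanged within 1.5 times the first count, and levels and the 4-cell percent within the SD between embryos. The single-exon share was labelled unchanged inside the exact binomial interval, and the median length only if equal. With edgeR on recovered UMIs 14 members were called higher from zygote to 4-cell and 11 lower from 4-cell to 16-cell, and with DESeq2 14 and 12, of the 14 members that passed the count filter. Of all 5321 genes that passed it, edgeR called 35.5% and 8.14%, and DESeq2 36.1% and 12%. Of the 14 members, E130309D02Rik, 1600010M07Rik and I0C0044D17Rik were not called lower by edgeR, and 1700034H15Rik and I0C0044D17Rik not by DESeq2, and the cause was not tested. Leaving out single embryos gave 20 to 23 and 17 to 22 calls among the members, beside 27.7% to 30.6% and 9.14% to 12% of all genes tested. The number of members was 47 at an L2C minimum of 5 and 4 at 20, and between 15 and 30 without 1 L2C embryo, lowest without embryo 4 (15). Of the 24 genes, 11 were chosen whichever L2C embryo was left out, and 23 when means were taken over embryos. Median spliced length was 953.5 nt over all isoforms, of which 4.29% had 1 exon. Without the 3 highest genes the summed level was 290 at L2C and 178 at 4-cell. Leaving out single embryos it was 472 to 518 and 318 to 347, and the median 4-cell percent was 54.1 to 62.9. No paired analysis was possible because the columns carry no number that pairs embryos of different stages.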

Other observations

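Gm9 was present or absent by embryo. It had 7, 44 and 20 UMIs in L2C embryos 1, 3 and 5, in each of their 5 cells, and 0 UMIs in both cells of embryos 2, 4 and 6, where 3 UMIs would have been 2.56, 2.91 and 2.40 copies per 100,000. In 4-cell embryos it had 15, 1, 5, 9 and 0 UMIs, and the 0 covered all 4 cells of embryo 5. UMIs of 7 Y-linked genes, chosen after these values had been seen, were 0, 7, 0, 0, 0 and 5 in L2C embryos 1 to 6 and 0, 0, 0, 11 and 4 in 4-cell embryos 1 to 5. Y-linked UMIs were found both in embryos without Gm9 and in 4-cell embryo 4, which had it.

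Gm32913 differed between some sister cells. In L2C embryo 3 it had 51 UMIs (80.6 copies per 100,000) in one cell and 11 (21.7) in the other, and in embryo 6 it had 8 (11.8) and 0. In embryo 2 the sisters had 39 (57.7) and 23 (46.2). In 4-cell embryo 5 the cells ranged from 2 to 15 UMIs.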
